A study of Mus musculus with 2 samples.

Results

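Collagen chains are the products of the Col genes, and the microarray held probes for 44 of them among 37073 gene names. The genes were chosen by name alone, as every non-control probe whose gene name reads Col, a number, a and a number, which gave 91 of 56604 probes. The name *Col4a3bp* does not follow this pattern and was not taken. The cells, MCMs, are commercial mouse cardiomyocytes that were kept in culture through several passages. In 1 culture a negative control siRNA, siRNA-NC, was introduced, and in the other siRNA-*Ppp2r5d*, a single siRNA against the gene of the B′ delta regulatory subunit of protein phosphatase 2A. Both cultures were grown in DMEM with serum, received glucose-free medium 48 h after transfection, and gave RNA at 64 h. The labels name no other treatment, and give no sex, strain or age of the cells. With 1 array per condition, every difference below compares 2 arrays without replicates, and no test was made.

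A collagen is built from 3 chains wound into a triple helix, in which glycine recurs at a fixed spacing. Fibrillar collagens such as types I and III form the fibers that give heart tissue its stiffness, and their build-up is what is seen as fibrosis. Type IV forms the sheet under the cells (basement membrane), types VIII and X form networks, type VI forms beaded filaments, and FACIT collagens, which have interrupted helices, sit on the surface of fibrils. Transmembrane collagens span the cell membrane, and multiplexins, types XV and XVIII, lie in basement membrane zones. In the heart, fibroblasts make most of the fibrillar collagen.

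The repeat of glycine can be read in the probes themselves. A probe of 60 bases was taken to lie in a helix where GGN, the codon form of glycine, stood every 9 bases at least 5 times in a row, in a reading frame with no stop, on the strand printed. The frame was not compared with an annotated coding sequence. Of the 91 collagen probes 6 met this, or 6.59%, against 8 of 56513 other probes, or 0.0142%. The 6 are shown because they carry the repeat that defines a collagen, and 3 of them gave a value on both arrays. The sequences, from the scanner files, run 5′ to 3′ with the glycine codons in capitals.
Col5a3: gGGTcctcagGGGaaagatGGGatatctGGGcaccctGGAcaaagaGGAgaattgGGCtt
Col6a3: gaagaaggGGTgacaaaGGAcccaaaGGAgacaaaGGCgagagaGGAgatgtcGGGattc
Col22a1: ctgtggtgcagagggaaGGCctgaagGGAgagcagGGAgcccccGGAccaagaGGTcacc
Col11a2: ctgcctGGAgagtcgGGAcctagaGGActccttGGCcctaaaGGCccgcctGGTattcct
Col16a1: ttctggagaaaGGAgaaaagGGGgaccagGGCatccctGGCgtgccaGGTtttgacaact
Col15a1: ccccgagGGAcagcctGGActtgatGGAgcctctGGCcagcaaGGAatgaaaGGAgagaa

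By the coordinates in the scanner files, which are of mouse build mm9, the *Col5a3* probe lies on the minus strand at chr9:20590066-20590795, an interval of 730 bases, so its 60 bases are drawn from separate stretches of the genome. The *Col6a3* probe, at chr1:92689602-92690594 on the minus strand, and the *Col22a1* probe, at chr15:71767749-71768433 on the minus strand, span intervals of 993 and 685 bases. The *Col11a2* probe lies at chr17:34189287-34189453 on the plus strand. The *Col16a1* and *Col15a1* probes lie in 1 stretch each, at chr4:129756457-129756516 and chr4:47283786-47283845, both on the plus strand. Helix probes of *Col5a3*, *Col6a3* and *Col22a1* were well above background on both arrays, that of *Col11a2* on the siRNA-NC array alone, and the other two on neither. Their log2 fold changes on the 3 that could be read were 0.29 for *Col5a3*, 0.31 for *Col6a3* and 0.011 for *Col22a1*. Which exon or untranslated region each of the other probes lies in was not analysed here.

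Intensities are given as the scanner software wrote them, in arbitrary units, and for a gene with several probes as their geometric mean. They are not comparable between probes. Before the arrays were compared, log2 intensities were scaled by the 75th percentile, 593 with siRNA-NC and 519 with siRNA-*Ppp2r5d*, so equal intensities correspond to a log2 fold change above 0. The intensity of *Ppp2r5d* itself was 4701 with siRNA-NC and 676 with siRNA-*Ppp2r5d*, a log2 fold change of -2.60. For error, the log2 fold change varied between spots of the same probe with a median SD of 0.036, and between probes of the same gene with a median SD of 0.12 over 7167 genes. The error model of the scanner software gave 0.204 to 0.386 on the log2 scale for a single collagen probe well above background on both arrays, and 0.447 for the helix probe of *Col11a2*. None of these covers the difference between cultures. Of 18 cardiomyocyte markers, 11 could be read on both arrays and 3 on 1 array, among the first *Actc1*, *Nkx2-5*, *Tnnt2* and *Myl4*, while *Actn2*, *Myl2*, *Myl7* and *Pln* were not well above background. Of 11 fibroblast markers, 8 were well above background on both arrays, among them *Vim*, *Dcn* and *Postn*, while *Tcf21*, *Thy1* and *Fap* were not.

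Of the 44 collagen genes, 31 were measured, that is, well above background on both arrays, and 13 were on neither, with no gene read on 1 array alone. Their median log2 fold change was 0.028, beside 0.026 for 20350 genes measured on both arrays. Their middle values were spread more toward the low side, with quartiles of -0.28 and 0.15, beside -0.15 and 0.18 for all genes. No collagen gene was at least 2-fold higher with siRNA-*Ppp2r5d*, where 1.07% of 21694 genes on the array were, and 1 of 31, *Col16a1*, was at least 2-fold lower, where 1.46% were. At 1.5-fold, 1 collagen gene was higher, *Col18a1*, against 3.86% of all genes. At the same fold 4 were lower, *Col16a1*, *Col24a1*, *Col11a2* and *Col8a2*, which is 4 of 31 against 5.41%. Both directions together gave 16.1% of the collagen genes and 9.27% of all genes. The share of the collagens rests on 5 genes. After normexp correction 1 in place of 4 was at least 1.5-fold lower. Calls fell over the whole array under this correction, from 316 to 45 of 21694 genes at least 2-fold lower.

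**Figure D1:**
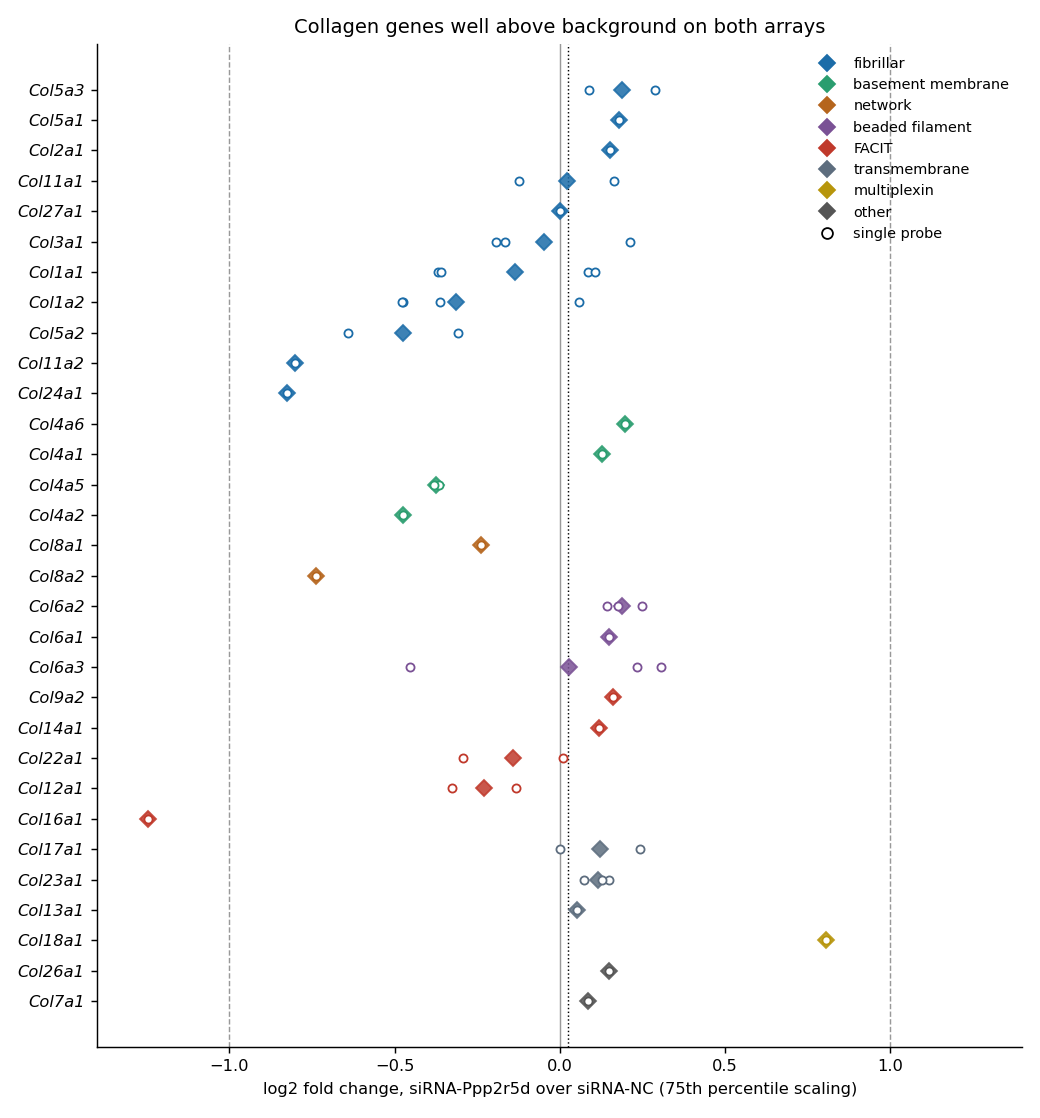
log2 fold change of siRNA-*Ppp2r5d* over siRNA-NC for the 31 collagen genes well above background on both arrays, grouped by class. Filled diamonds are gene means, open circles single probes, dashed lines 2-fold, the dotted line the median of all genes. *Col16a1* lies past 2-fold on the low side at -1.25 and *Col18a1* highest at 0.81, and most other genes lie within 0.5 of 0.

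*Col16a1* encodes the chain of type XVI, a FACIT collagen found near basement membranes and fibrils. Its intensity was 2451 with siRNA-NC and 904 with siRNA-*Ppp2r5d*, a log2 fold change of -1.25, or 2.37-fold lower, with a scanner error of 0.20. This value comes from 1 of 3 probes, at chr4:129776333-129776392 on the plus strand. The other two probes of the gene, one of them the helix probe shown above, were not well above background on either array, with intensities of 12.3 and 6.91 for siRNA-NC against 4.34 and 2.96 for siRNA-*Ppp2r5d*. Under 11 alternative settings the value lay between -1.42 and -1.20, past 2-fold in each. Requiring both arrays, the brightest probe or RefSeq probes kept the same 1 probe, so these settings could not move it.

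*Col18a1* encodes the chain of type XVIII, a multiplexin of basement membranes whose C-terminal fragment is endostatin. Its intensity was 7023 with siRNA-NC and 10744 with siRNA-*Ppp2r5d*, and its log2 fold change of 0.81, or 1.75-fold higher, was the highest among the 31 collagen genes. The value comes from the only probe of the gene, at chr10:76515820-76515879 on the minus strand, and stayed between 0.63 and 0.83 in 11 alternative settings. Those that change the filter or the choice of probes could not move the value of a single probe. Which isoforms this probe detects was not analysed here. *Col15a1*, the other multiplexin, was not well above background with either of its probes.

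All 11 fibrillar genes could be read on both arrays, with a median log2 fold change of -0.049, and 5 lay above 0 and 6 below. *Col1a1* and *Col1a2*, whose chains form type I, the main collagen of the heart, had intensities of 7339 and 3851 with siRNA-NC and of 5849 and 2711 with siRNA-*Ppp2r5d*. Their log2 fold changes were -0.13 and -0.31. For *Col3a1*, the chain of type III, intensities were 6417 and 5427 and the log2 fold change was -0.049. These 3 values are means over probes that did not move together, as described below for the source of each probe. *Col2a1*, the chain of type II of cartilage, had a log2 fold change of 0.15.

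Type V, which sets the diameter of type I fibrils, split by chain. Intensities of *Col5a1* were 40612 with siRNA-NC and 40249 with siRNA-*Ppp2r5d*, and those of *Col5a3* were 1060 and 1057, with log2 fold changes of 0.18 and 0.19. The value of *Col5a1* was between 0.0032 and 0.037 under quantile normalization, cyclic loess, spike-in scaling and the authors' log2 values. The intensity of *Col5a2* was 1340 with siRNA-NC and 843 with siRNA-*Ppp2r5d*, a log2 fold change of -0.48, with its 2 probes at -0.64 and -0.31. Thus 1 chain of type V was lower while the other two differed from 0 by less than the scanner error of a single probe.

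The lowest log2 fold changes among the fibrillar genes were those of *Col11a2* and *Col24a1*. *Col11a2*, a chain of type XI, had an intensity of 74.9 with siRNA-NC and 37.6 with siRNA-*Ppp2r5d*, a log2 fold change of -0.80 with a scanner error of 0.24. Its helix probe, read on 1 array only, had intensities of 23.3 and 11.5, and a log2 fold change of -0.83 that rests on a signal not well above background. *Col24a1*, a fibrillar chain of developing bone and eye, had intensities of 40.2 and 19.9 and a log2 fold change of -0.83 with a scanner error of 0.30. The lowest signal well above background was 14.9 with siRNA-NC and 13.5 with siRNA-*Ppp2r5d*, so *Col24a1* lay close to it. With normexp background correction and an offset of 50, the log2 fold change was -0.30 for *Col11a2* and -0.086 for *Col24a1*, and averaging in the dim second probe of *Col24a1* gave -0.38. *Col11a1* and *Col27a1* had log2 fold changes of 0.021 and 0.0020. A further probe of *Col11a1*, read with siRNA-NC alone, had intensities of 24.2 and 12.5, and where dim probes were averaged in, the values were -0.24 for *Col11a1* and -0.33 for *Col27a1*.

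**Figure D2:**
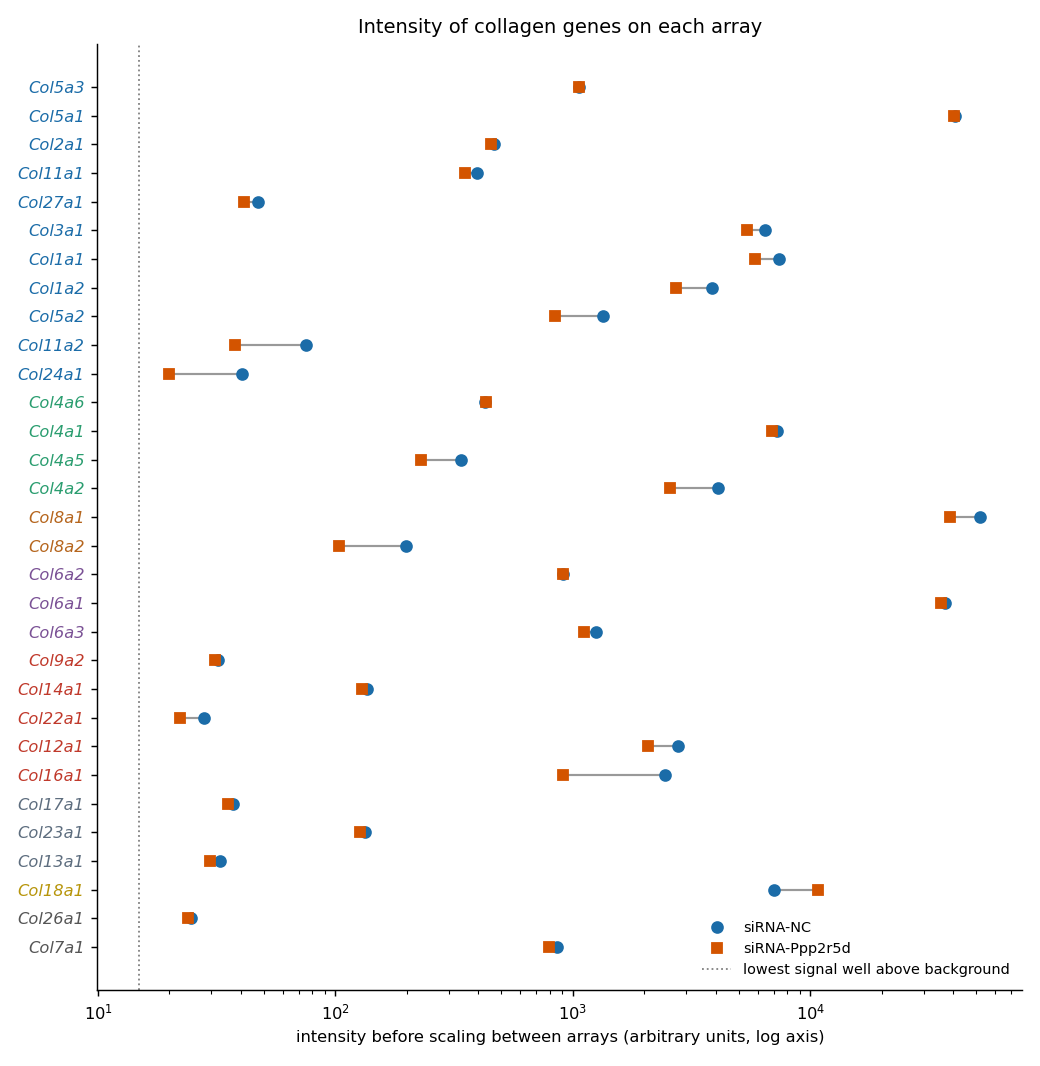
Intensity of each measured collagen gene on the siRNA-NC array (circles) and the siRNA-*Ppp2r5d* array (squares), before scaling between arrays, on a log axis, with gene names coloured by class as in the plot of fold changes. Brightness is not comparable between genes. *Col18a1* is the gene with a clearly higher square, and *Col16a1* has the longest line in the other direction.

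Of the 6 basement membrane genes, 4 were measured, and they lay on both sides of 0 with a median of -0.12. *Col4a1* and *Col4a2* encode the chains of the common type IV network. The intensity of *Col4a1* was 7208 with siRNA-NC and 6897 with siRNA-*Ppp2r5d*, a log2 fold change of 0.13, or -0.047 under spike-in scaling. The intensity of *Col4a2* was 4073 and 2564, a log2 fold change of -0.47. Each gene has 1 probe, at chr8:11199009-11199068 on the minus strand and chr8:11448840-11448899 on the plus strand of mm9. These genes lie head to head, and in RefSeq on build GRCm38 their start sites on chromosome 8 are at 11312826 and 11312805, 21 bases apart on opposite strands. Their log2 fold changes differed by 0.60, with a scanner error of 0.29 for the difference. The gap was between 0.53 and 0.60 in 11 alternative settings. Of these, normexp, cyclic loess, quantile normalization and the authors' values could move it. Constant scalings cancel in a difference, and filters or probe choices do not act on genes with 1 probe each.

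*Col4a5* and *Col4a6*, the X-linked head to head pair, likewise did not run in parallel. Intensities of *Col4a5*, the chain altered in Alport syndrome, were 339 with siRNA-NC and 229 with siRNA-*Ppp2r5d*, a log2 fold change of -0.37 with both probes between -0.38 and -0.37. Intensities of *Col4a6* were 428 and 429, a log2 fold change of 0.20 from 1 probe. The difference was 0.57 with a scanner error of 0.29 for a difference between single probes, and their RefSeq start sites lie 1343 bases apart. *Col4a3* and *Col4a4*, the partners of *Col4a5* in the kidney, were not well above background on either array.

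Both measured network genes lay below 0, with a median of -0.49. *Col8a1*, a chain of the short collagen of vessel walls and the cornea, had an intensity of 51972 with siRNA-NC and 38527 with siRNA-*Ppp2r5d*, a log2 fold change of -0.24, which lay between -0.42 and -0.39 under quantile normalization, cyclic loess, spike-in scaling and the authors' values. *Col8a2*, its partner, had intensities of 197 and 103 and a log2 fold change of -0.74 with a scanner error of 0.21, from 1 of 2 probes, and -0.49 after normexp correction. *Col10a1*, the collagen of growth plate cartilage, was not well above background.

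Type VI chains, which form the beaded filaments around cells, had similar values as gene means. Intensities were 36709 and 35594 for *Col6a1*, 906 and 904 for *Col6a2*, and 1247 and 1113 for *Col6a3*, in each case siRNA-NC first. Their log2 fold changes were 0.15, 0.19 and 0.028, a range smaller than the scanner error of 0.29 for a difference between single probes. For *Col6a3* this is a mean over probes at -0.45, 0.23 and 0.31, and on RefSeq probes alone it was 0.27. The value of *Col6a1* lay between -0.028 and 0 under quantile normalization, cyclic loess, spike-in scaling and the authors' log2 values, so no direction is given for it. *Col6a4*, *Col6a5* and *Col6a6*, the later described chains of type VI, were not well above background.

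Among FACIT genes 5 of 9 were measured, with a median of -0.14 that became 0.029 after normexp correction. Besides *Col16a1*, values below 0 were found for *Col12a1*, a chain of tendon and ligament fibrils, with a log2 fold change of -0.23 from intensities of 2765 with siRNA-NC and 2062 with siRNA-*Ppp2r5d*, and for *Col22a1*, a chain of tissue junctions, with -0.14. *Col14a1*, with 0.12, and *Col9a2*, a chain of type IX of cartilage, with 0.16, lay above 0. *Col9a1*, *Col9a3*, *Col19a1* and *Col20a1* were not well above background. *Col20a1* was the 1 gene that counted as 2-fold higher where dim probes were not filtered, at 1.06, with intensities of 5.60 and 10.2.

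The 3 measured transmembrane genes were close together, at 0.053 for *Col13a1*, 0.12 for *Col17a1* and 0.12 for *Col23a1*, with a median of 0.12 that became -0.060 under spike-in scaling. *Col25a1* was not well above background. Outside these classes, *Col7a1*, the anchoring fibril chain of skin, had a log2 fold change of 0.084, and *Col26a1* had 0.15, while *Col28a1* was not well above background. The transmembrane values thus lay nearer to each other than those of the fibrillar genes, which ran from -0.83 to 0.19, and of the FACIT genes, which ran from -1.25 to 0.16. These ranges cover 3, 11 and 5 genes, and a range tends to widen with the number of genes. The 3 measured beaded filament genes also lay close together, from 0.028 to 0.19. With so few genes per class, class medians were not tested against each other. The 13 genes on neither array were spread over all classes other than the fibrillar one.

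**Figure D3:**
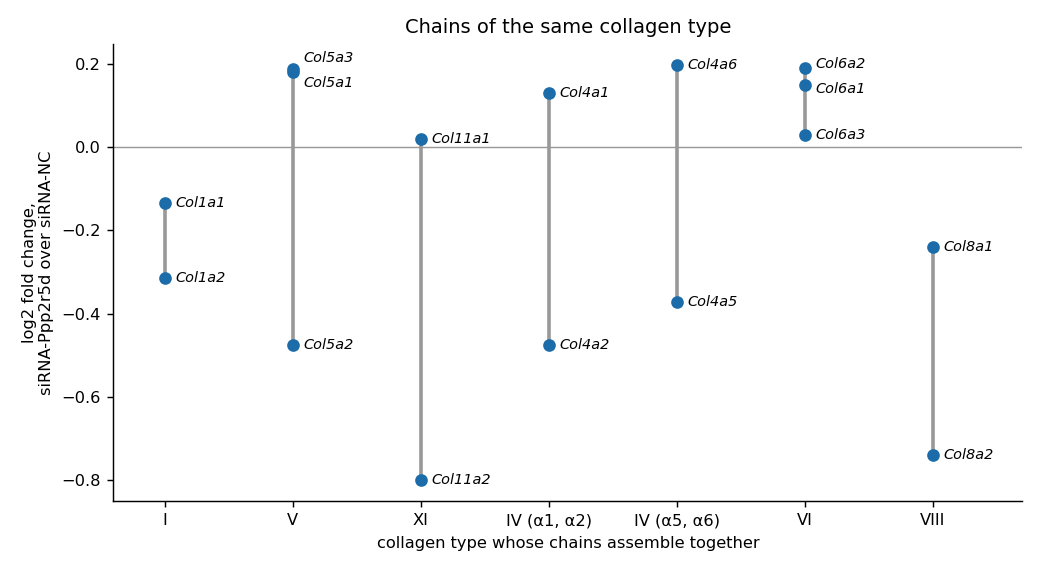
log2 fold change of chains that assemble within the same collagen type, each point 1 gene and each bar the range of the genes drawn, for type XI *Col11a1* and *Col11a2* only. Types V, XI and both pairs of type IV span 0.57 to 0.82, while types I and VI span 0.18 and 0.16.

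Collagen molecules can combine different chains, so chains of 1 type were set side by side. The range between the highest and lowest chain was 0.18 for type I and 0.16 for type VI. The scanner error of a difference between single probes was 0.31 and 0.29, not reduced for averaging over probes. Probes of *Col1a1*, of *Col1a2* and of *Col6a3* lay further apart than these ranges. It was 0.50 for type VIII, 0.66 for type V and 0.82 for *Col11a1* and *Col11a2*, the only genes compared for type XI. For type XI the range was 0.35 after normexp correction, and for type VIII it was 0.23. In type V it stayed between 0.64 and 0.83 in 11 alternatives. The difference between *Col4a5* and *Col4a6* stayed between 0.45 and 0.57. Constant scalings cancel in such differences, so not every alternative could move them. The ranges of types XI and VIII were thus smaller after normexp correction, which was run only with an added offset of 50. The part of the offset in this was not tested.

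The value of a gene also depended on which of its probes was read. Some probes of the array are assigned to a RefSeq transcript and others to an Ensembl transcript only, and 6 collagen genes had both kinds well above background on both arrays. This comparison was chosen after the values were seen. In *Col1a1* the RefSeq probes had a mean log2 fold change of 0.096 and the probes of Ensembl alone one of -0.36. In *Col1a2* these values were 0.059 and -0.44, and in *Col3a1* they were 0.21 and -0.18. With this scaling the RefSeq probes of the main fibrillar chains therefore lay slightly above 0, and the others below. In *Col1a1* and *Col1a2* the RefSeq values were smaller than the scanner error of 0.204 for a single probe. Before scaling, the RefSeq probe of *Col1a2* had intensities of 147519 with siRNA-NC and 134481 with siRNA-*Ppp2r5d*.

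The same order held in *Col6a3*, with 0.27 and -0.45, and in *Col6a2*, with 0.21 and 0.14, and it was the opposite in *Col5a2*, with -0.64 and -0.31. In all, the Ensembl probes were lower in 5 of 6 collagen genes, with a median difference of -0.43. Across 1784 other genes with both kinds they were lower in 67.9%, with a median difference of -0.14, so the order is not particular to collagens. The reason was not tested. Restricted to RefSeq probes, the median of the fibrillar genes was 0.059 in place of -0.049, the median of 30 collagen genes was 0.11 and that of all genes 0.036, and *Col5a2* was past 1.5-fold on the low side.

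**Figure D4:**
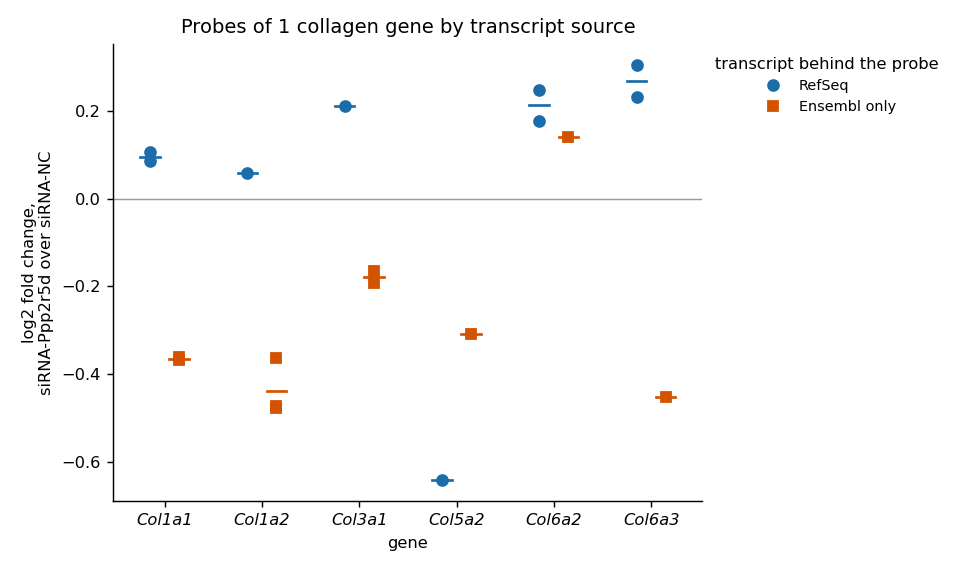
log2 fold change of each probe in the 6 collagen genes with probes of both sources, RefSeq as circles and Ensembl alone as squares, with bars at the means. Squares lie below circles in 5 genes, and above in *Col5a2*.

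Genes that act on collagen were described as lists written from general knowledge. Of 24 genes for hydroxylation, folding and secretion of the chains, 23 were measured, with a median log2 fold change of -0.030 and none past 2-fold. The highest was *Tmem38b*, an ion channel of the endoplasmic reticulum, at 0.70, from intensities of 124 with siRNA-NC and 176 with siRNA-*Ppp2r5d*. The lowest was *P4ha3*, a prolyl 4-hydroxylase subunit, at -0.68, from 137 and 74.7. Of 11 genes for cleavage of the propeptides, 7 were measured and *Mep1a* was read on 1 array, with a median of -0.12. *Adamts14*, which removes the N-propeptide of fibrillar procollagens, was the 1 gene past 2-fold, with intensities of 1132 and 449, a log2 fold change of -1.14 and its 2 probes at -1.20 and -1.09. *Adamts2*, which cleaves the same propeptides, had 0.20.

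All 6 cross-linking genes were measured, 5 of them below 0, where 45.8% of all genes were, with a median of -0.19. Among them *Loxl4*, a lysyl oxidase homolog, was lowest at -0.66 and *Lox*, the lysyl oxidase itself, highest at 0.22. Of 15 proteins that bind fibrils, 13 were measured, with a median of 0.037. *Lum*, encoding the fibril-spacing proteoglycan lumican, was 2-fold higher, with intensities of 156 and 288 and a log2 fold change of 1.08, which was 0.88 after normexp correction and 0.91 under spike-in scaling, and *Prelp*, a related proteoglycan, was lowest at -0.72. *Lum* also stands among the fibroblast markers, where the summed intensity of 11 markers, over the brightest probe of each, was 388743 with siRNA-NC and 388881 with siRNA-*Ppp2r5d*, or 0.19 on the log2 scale after scaling. That of 18 cardiomyocyte markers was 11531 and 11587, or 0.20. The scaled sums differed by 0.054 for 6 smooth muscle markers, by -0.068 for 8 endothelial markers and by -0.42 for 6 macrophage markers. Since a sum is led by its brightest probes, the genes were also read singly. Of the 11 cardiomyocyte markers measured 9 lay above 0, where 11021 of 20350 genes did, with a median log2 fold change of 0.62. *Csrp3*, a muscle LIM protein, was highest at 1.93. Past 1.5-fold on the high side were 6, against 3.86% of all genes. Of these *Csrp3*, *Myl3*, *Nppa* and *Nppb* rested on 1 probe each, with siRNA-NC intensities of 37.7, 40.4, 16.6 and 17.1. The lowest signal well above background on that array was 14.9. Of the 8 fibroblast markers 6 lay above 0, with a median of 0.15. The 6 smooth muscle markers had a median of -0.066. *Cnn1*, a calponin, was at 2.41 from 1 of 2 probes, and *Tagln*, encoding transgelin, at 0.85. The other 4 lay below 0, *Acta2* at -0.020, *Smtn* at -0.11, *Myh11* at -0.38 and *Des* at -0.42. The part of the cell type markers in the collagen values was not tested. In RNA of whole cultures fewer cells of a type and less RNA per cell cannot be told apart.

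Of 11 collagen receptors, 7 were measured, with a median of -0.091. *Itga2*, the alpha 2 integrin subunit that binds type I collagen, was well above background with siRNA-NC alone, with intensities of 32.1 and 2.68, and was at least 2.09-fold lower, a bound set by the lowest signal well above background. After normexp correction the bound was 0 on the log2 scale, which sets no limit. Among receptors measured on both arrays *Itga11* was lowest at -0.46 and *Itga10* highest at 0.43. Of 12 collagen-degrading enzymes, 7 were measured, with a median of 0.18 and values from -0.31 for *Ctsl* to 0.39 for *Mmp16*. The value of *Ctsl* is the mean of probes at -0.84 and 0.23, so no direction is given for it. The collagenases *Mmp1a*, *Mmp1b* and *Mmp13* and the gelatinase *Mmp9* were not well above background. *Mmp2*, *Mmp14* and *Mmp8* of the same list were measured, at 0.18, 0.099 and 0.20. Their intensities with siRNA-NC were 42355, 1244 and 18.6, the last near background. Of 18 genes of TGF-beta signaling and transcriptional control of collagen on the array, all were measured, with a median of -0.011. The ligand *Tgfb2* was highest at 0.45.

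**Figure D5:**
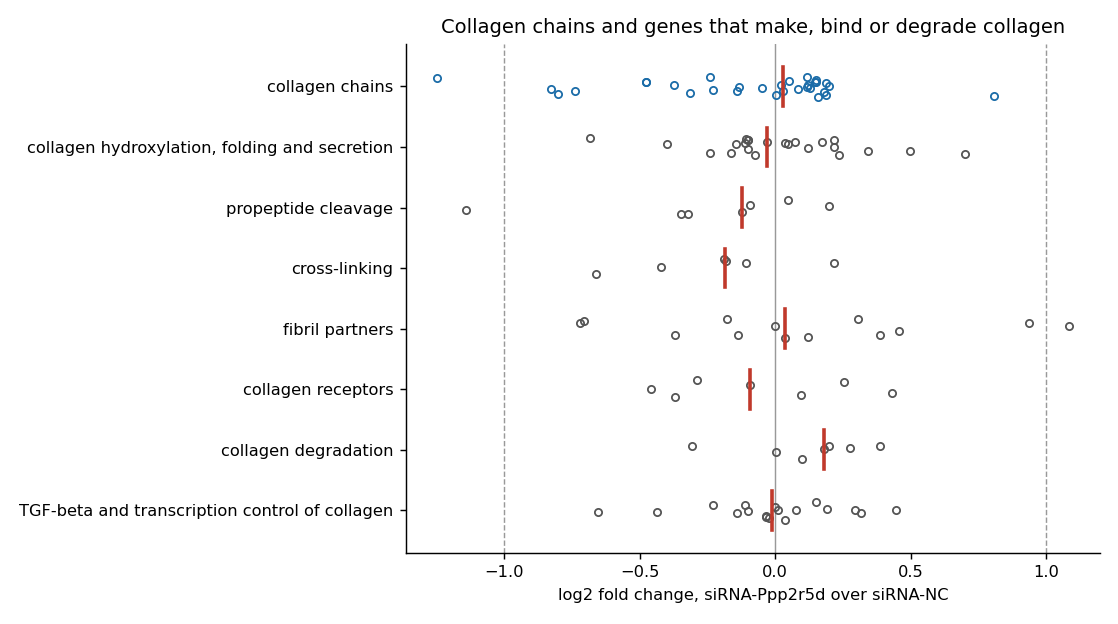
log2 fold change of the measured collagen genes and of genes in 7 lists, each circle 1 gene and each red bar the median. Dashed lines mark 2-fold, genes read on 1 array only are not drawn, and the medians lie between -0.19 and 0.18.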

How the data were processed

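The 2 RNA samples, 1 of MCMs that received siRNA-NC and 1 of MCMs that received siRNA-*Ppp2r5d*, were each hybridized to a one-colour Agilent array. The authors deposited the background-corrected intensity of each spot from Feature Extraction 10.7.1.1, not normalized between arrays, and a table of log2 values, for which no normalization is stated. The medians of this table were 5.02 for both arrays, and it served as an alternative. Control spots were left out, as were outlier spots, 126 on the control array and 95 on the other. Spots of a probe were averaged on the log2 scale, and each array was scaled by subtracting its 75th percentile. Gene values are means over probes well above background on both arrays, or bounds where 1 array was. No spot was saturated.

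No test was run with 1 array per group. The collagen genes, classes, lists and thresholds were chosen with earlier results of these data known. Every collagen gene above background is named, and of other lists the genes past 2-fold and the highest and lowest, except 1 value that is not reported here. All 44 collagen names matched the RefSeq table of GRCm38, and array coordinates are mm9. The steps were tested on simulated data. Alternatives were other scalings, normexp correction, the authors' log2 values, other filters, probe choices and thresholds. R 4.3.3, limma 3.58.1, Python 3.11.15, NumPy 2.4.6, pandas 2.3.3 and matplotlib 3.10.9 were used.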

Additional observations from a re-analysis of the deposited data

How the results depend on the processing

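Of 202 counts and medians recomputed, 166 stayed within the tolerance, which was the median SD of 0.12 between probes of a gene or 1.5 times a count. Of 515 values of single genes 419 stayed within it and 96 moved. Some gene values changed sign between settings. Among them *Col1a1* lay between -0.31 and 0.096, *Col1a2* between -0.49 and 0.059 and *Col3a1* between -0.23 and 0.21. *Col16a1*, *Col18a1*, *Col24a1*, *Col11a2* and *Col8a2* kept their sign in all 11. Each rests on 1 probe well above background on both arrays, which settings that choose among such probes could not change. Scaling to 8 spike-in probes lowered the median of all genes from 0.026 to -0.15 and put 26 of 31 collagen genes below 0. It gave 2 collagen genes at least 2-fold lower, while that count over all 21694 genes went from 316 to 550. This scaling shifts every measured gene by the same amount, so the collagen median stayed 0.0024 above that of all genes. Under it the medians were -0.15 for collagens, -0.23 for fibrillar, -0.30 for basement membrane, -0.67 for network, -0.028 for beaded filament, -0.32 for FACIT, -0.060 for transmembrane, 0.63 for multiplexin and -0.059 for other collagens. For the lists they were -0.21 for hydroxylation, folding and secretion, -0.30 for propeptide cleavage, -0.36 for cross-linking, -0.14 for fibril partners, -0.27 for receptors, 0.0053 for degradation and -0.19 for TGF-beta. Without a filter on dim probes the medians were -0.24 for fibrillar, 0.013 for basement membrane, -0.24 for network, 0.011 for FACIT, 0.36 for multiplexin, 0.014 for propeptide cleavage and 0.043 for receptors, and 1 collagen gene was at least 2-fold higher, as were 957 of 37073 genes. The brightest probe of each gene gave 0.086 for fibrillar and 0.090 for receptors, and normexp gave 0.029 for FACIT. The median of beaded filament genes was 0.0038 by quantile normalization, 0.00026 by cyclic loess and 0.0070 by the authors' values, and that of propeptide cleavage was -0.26 and -0.25 by the first 2 of these. At 1.5-fold 1 collagen gene was higher and 4 lower, and at 4-fold 0 were lower. After normexp 1 collagen gene was lower at 1.5-fold, while the count of all genes at least 2-fold lower fell from 316 to 45. The causes were not tested. No paired analysis was possible because each group has 1 array, and for the same reason no replicate could be left out. Precision is limited by having 2 arrays, and signals near background limit those of *Col9a2*, *Col11a2*, *Col13a1*, *Col17a1*, *Col22a1*, *Col24a1*, *Col26a1* and *Col27a1*.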
